A study of Mus musculus with 12 samples.

Results

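The ethanol group and the stress group each received 1 early exposure, and they were set directly against each other without reference to control mice. The members are the 3 ethanol and 3 stress libraries, 6 of the 12 in the series, chosen by their labels. All were hippocampus of individual male C57BL/6 mice (C57BL/6J in the methods) at postnatal day 70. Ethanol mice were the pups of dams that drank 10% ethanol by choice through gestation, with ethanol still offered for a time after birth according to the methods. These pups stayed in the nest with the dam while littermates were isolated. Stress mice were pups of water-drinking dams and were isolated for 3 h daily on postnatal days 2 to 14. The control group, with neither exposure, and the ethanol + stress group, with both, have 3 mice each. They enter the mean level by which genes were kept for testing and some alternatives, such as a fit to all 12 libraries. Otherwise they appear as levels beside the comparison. Pups within a litter were divided between isolation and the nest, so an ethanol mouse and a stress mouse never shared a dam, and dam, litter and exposure cannot be told apart. Blood alcohol was not measured, so the dose each ethanol pup received is unknown.

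The hippocampus forms spatial and contextual memory through a relay from the dentate gyrus to the CA fields, and it carries dense receptors for the stress hormone corticosterone. Ethanol before birth disturbs the birth, migration and survival of neurons and glia. Isolation of a rodent pup from the dam activates the hypothalamic-pituitary-adrenal axis, in which corticotropin-releasing hormone drives corticosterone release. Both exposures ended weeks before the tissue was taken, so the comparison asks whether adult hippocampal transcript levels still distinguish them.

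Transcript abundance is given in TPM, a measure corrected for transcript length, on the deposited scale, where libraries sum to different totals (889222 to 1173650), and it was summed here over all transcripts of a gene. Of 35580 genes, the 14455 with a mean of 1 TPM or more over the 12 libraries were tested. A positive difference is higher in ethanol, on the scale of log2(TPM + 0.5). A gene is called at an unadjusted p under 0.01 by limma, the threshold used in the study. The 12 libraries held about 11670000 to 14570000 read pairs on transcripts of 500 bases or more, recovered from the steps between low values. Markers of the dentate gyrus and the CA fields were present in every library, with Prox1 from 12.7 to 20.9 TPM, Neurod6 from 90.4 to 145 TPM and Fibcd1 from 33.8 to 62.5 TPM.

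The ethanol and stress hippocampi differed little. Of the genes tested, 47 were called (0.325%), 34 higher (0.235%) and 13 lower (0.0899%) in ethanol, where a share of 1% corresponds to 145 genes. After Benjamini-Hochberg adjustment no gene passed 0.05, and limma gave 349 genes an unadjusted p under 0.05 (2.41%), where 5% corresponds to 723. These counts depend on the genes kept and on the variance model, with 19 calls at a minimum mean of 5 TPM, 135 at 0.1 TPM and 230 with no filter, and 31 with a common total. At an adjusted p under 0.05, limma gave 7 genes at 0.1 TPM, 20 with no filter, 3 without the mean-variance trend and 1 in a fit to all 12 libraries. In the main comparison, the lowest adjusted p was 0.0686, for the pseudogene Gm14269, and the other 46 called genes had an adjusted p of 0.272 or more. Across all genes tested the median difference was 0.01 on the log2 scale, and the median size of a difference was 0.10. For 13248 genes (91.6%) the 95% confidence interval lay inside a doubling in either direction.

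Whole profiles did not separate the groups either. The correlation distance, 1 minus Pearson's r over the genes tested, ran from 0.0258 to 0.0369 between ethanol mice and from 0.0205 to 0.0226 between stress mice. Between an ethanol and a stress mouse it ran from 0.0189 to 0.0367. The mean distance between groups minus that within groups was -0.000335 (exact permutation test, one-sided, p = 0.7, with 0.1 the smallest p that 10 splits allow). The ethanol mice lay farther from each other than the stress mice did.

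**Figure D1:**
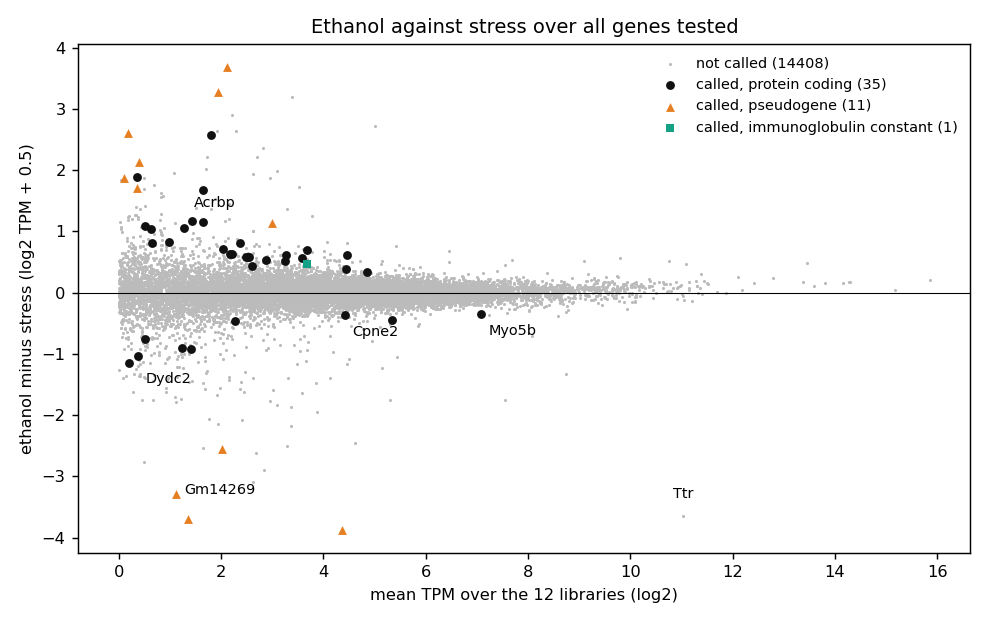
Each point is a gene, with its mean TPM over the 12 libraries on a log2 axis and its ethanol minus stress difference in log2(TPM + 0.5) on the vertical axis. Called genes are black circles (35 protein coding), orange triangles (11 pseudogenes) and a green square (1 immunoglobulin gene), and most of them lie at low abundance, while abundant genes cluster near 0.

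Of the called genes, 35 were protein coding (0.252% of 13872 tested), 11 were pseudogenes (1.94% of 566) and 1 was the immunoglobulin heavy-chain constant gene Ighm. The protein-coding genes had a median level of 4.62 TPM, against 17.7 TPM for all genes tested, and 27 of the 35 lay under 10 TPM. Their fitted ratios ran from 1.26-fold to 5.97-fold with a median of 1.62-fold. All 47 had non-overlapping ethanol and stress values, as did 922 (6.38%) of the genes tested (3.85% with ethanol above and 2.53% with ethanol below), so this separation is common among genes that were not called.

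The calls also moved with single mice. Of the 47, 12 kept the call whichever of the 6 libraries was left out, 2 lost it in 1 fit and 33 lost it in 2 or more. None changed direction, because groups that do not overlap cannot reverse when 1 library is left out. Some of the 12 reached the 1 TPM minimum through the group where they are high. Pdcd5-ps, for example, had a mean of 9.87 TPM in stress and 0.356, 0 and 0 TPM in control, ethanol and ethanol + stress. Without ethanol mouse 1, 2 or 3, 20, 23 and 26 of the 47 were called, and without stress mouse 1, 2 or 3, 16, 22 and 23. The number of genes called ranged from 41 to 92 over these fits. The protein-coding genes that kept their call throughout were Gins1, Megf6 and 4930469K13Rik, and the rest of the 12 were pseudogenes.

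Many of these protein-coding calls depended on which transcripts were summed. GENCODE splits a gene into coding transcripts and others, such as processed transcripts and retained introns, and a TPM sum weighs a short fragment as heavily as the full mRNA. When only transcripts annotated as protein coding were summed, an alternative added after seeing the data, 9 of the 35 genes were still called, 18 were tested and not called, and 8 fell under 1 TPM and were not tested. Of the 18, 5 (Acrbp, Adamtsl5, Ugt3a1, Cth and Mrm1) kept non-overlapping groups, with differences on coding transcripts of 0.98, 0.94, 1.56, 0.49 and 0.35. The coding share of the sum was under 50% in 14 of the 35. In 21 of the 35 the coding sums of the groups overlapped. The difference changed sign in 7 of the 27 tested, and among the 8 not tested the means of the low coding values had the opposite sign in 3. When read pairs recovered from transcripts of 500 bases or more replaced TPM, also added after seeing the data, 4 of the 35 (Acrbp, Cth, Cpne2 and Phf13) were called and 3 (Ugt3a1, Gm17402 and Gm21887) could not be tested for want of such read pairs. Taken as single transcripts, 280 of 35350 were called (0.792%). Only Cpne2 and Phf13 were called in all 3 fits. In neither alternative were 24 called, of which 15 were tested in both and 9 in only 1 of them.

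**Figure D2:**
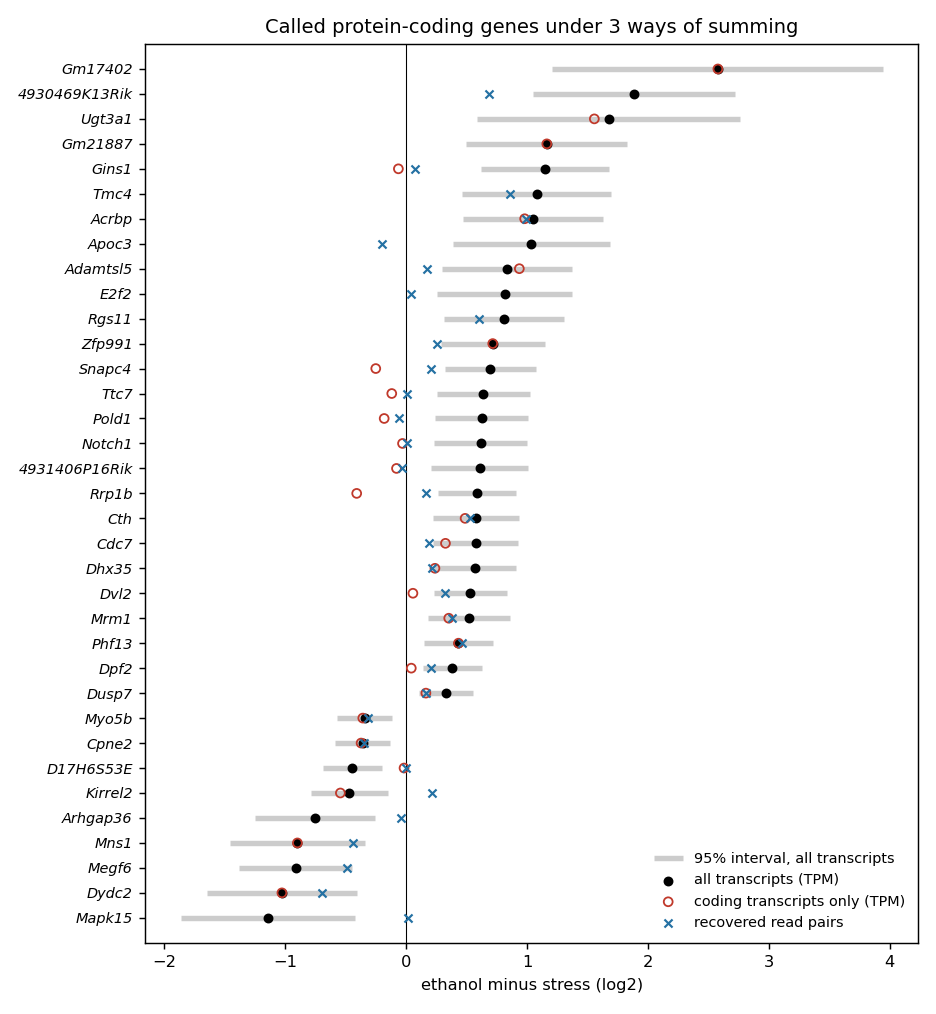
The 35 called protein-coding genes are on the vertical axis, and the horizontal axis is the ethanol minus stress difference in log2 units. Black points sum all transcripts, grey bars are their 95% confidence intervals, red circles sum coding transcripts and blue crosses use recovered read pairs, with no red circle or blue cross where a gene was not tested. Marks coincide for Cpne2, Myo5b and Phf13, and red circles and blue crosses lie near 0 for Gins1, Notch1 and D17H6S53E.

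Cpne2 encodes a copine, a calcium-dependent phospholipid-binding protein, and lies at chr8:94532990-94570531 (GRCm38). It was lower in ethanol. Its level was 18.6, 17.3 and 18.2 TPM in ethanol mice 1 to 3, against 24.3, 23.2 and 22.2 TPM in stress mice. The ranges did not overlap, and each group was tight. The fitted difference was -0.36 (SE 0.10, 95% confidence interval -0.59 to -0.13, limma unadjusted p = 0.00663). Coding transcripts held 95.6% of the sum and gave -0.37 (unadjusted p = 0.00444), and recovered read pairs gave -0.35 (unadjusted p = 0.00561). Control mice were at 20.6, 26.0 and 25 TPM and ethanol + stress mice at 19.1, 18.9 and 22.0 TPM, so 2 of the 3 control mice lay above every stress mouse. The call for Cpne2 was lost whichever of the 6 libraries was left out, with differences from -0.33 to -0.39.

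Myo5b, on chromosome 18, encodes a myosin motor that carries recycling endosomes and, in hippocampal dendrites, glutamate receptors. Its sum was 112, 112 and 126 TPM in ethanol mice and 151, 154 and 140 TPM in stress mice, which do not overlap, with a difference of -0.34 (SE 0.10, limma unadjusted p = 0.00872). Coding transcripts were 16.4% of this sum, and they too were lower, at 20.1, 18.6 and 19.1 TPM against 25, 26.1 and 23.3 TPM (-0.36, unadjusted p = 0.00714), while recovered read pairs gave -0.32 (unadjusted p = 0.0105, not called). The rest came mainly from a 388-base retained-intron transcript (34.5% of the sum), a 470-base processed transcript (31.4%) and a 2500-base retained-intron transcript (17.8%). Each of these was lower in all 3 ethanol mice than in any stress mouse, so the transcripts of Myo5b shifted together. Control mice spanned both groups, at 118, 159 and 149 TPM. The Myo5b call held only without ethanol mouse 3 and was lost without any of the other 5, with differences from -0.31 to -0.40.

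Phf13 encodes a PHD-finger protein that binds chromatin, and it is named here after its values were seen. It has 1 measured transcript of 3205 bases. Ethanol mice were at 7.11, 7.14 and 7.74 TPM and stress mice at 5.33, 5.18 and 5.38 TPM, a difference of 0.43 (SE 0.12, limma unadjusted p = 0.0086), and recovered read pairs gave 0.46 (unadjusted p = 0.00263). The ethanol + stress mice, at 5.09, 5.20 and 5.08 TPM, sat with or below the stress mice, and control mice, at 6.03, 6.65 and 7.25 TPM, sat mostly between. Phf13 was not called once any library was left out, although the difference stayed between 0.40 and 0.45.

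Dydc2 lies at chr14:41049117-41069208 (GRCm38) and has 1 measured transcript, of 818 bases. It was lower in ethanol, at 0.547, 0.848 and 0.520 TPM against 1.96, 2.13 and 1.38 TPM in stress mice (-1.03, SE 0.27, limma unadjusted p = 0.00523). Recovered read pairs gave -0.69 (unadjusted p = 0.0134, not called). These are low levels, and control mice alone ranged from 0.432 to 2.21 TPM, wider than the gap between the groups. The Dydc2 call held without ethanol mouse 2 or stress mouse 3 and was lost in the other 4 such fits, from -0.93 to -0.98.

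Acrbp and Cth were called on TPM and on read pairs and kept non-overlapping groups on coding transcripts. Acrbp encodes the acrosin-binding protein of the sperm acrosome and was low in every mouse, at 4.16, 2.97 and 3.46 TPM in ethanol and 1.46, 0.983 and 1.98 TPM in stress (1.05, SE 0.25, limma unadjusted p = 0.00312). Its recovered read pairs gave the smallest p of the called genes on that scale (0.99, unadjusted p = 0.000514), and its coding transcripts gave 0.98 (unadjusted p = 0.0148). Acrbp lost the call in 1 of the 6 fits without a library, that without ethanol mouse 1, where the difference was 0.94.

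Cth encodes cystathionine gamma-lyase, which makes cysteine in the transsulfuration pathway. It was at 7.56, 6.95 and 6.86 TPM in ethanol mice and 3.89, 5.34 and 4.68 TPM in stress mice (0.58, SE 0.15, limma unadjusted p = 0.00591). Of the other groups, control mice were at 4.70, 4.86 and 3.68 TPM and ethanol + stress mice at 5.98, 7.67 and 7.59 TPM, the latter all above every stress and control mouse. Recovered read pairs of Cth gave 0.53 (unadjusted p = 0.00891) and coding transcripts 0.49 (unadjusted p = 0.028). The Cth call held only without stress mouse 2, with differences from 0.47 to 0.68.

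**Figure D3:**
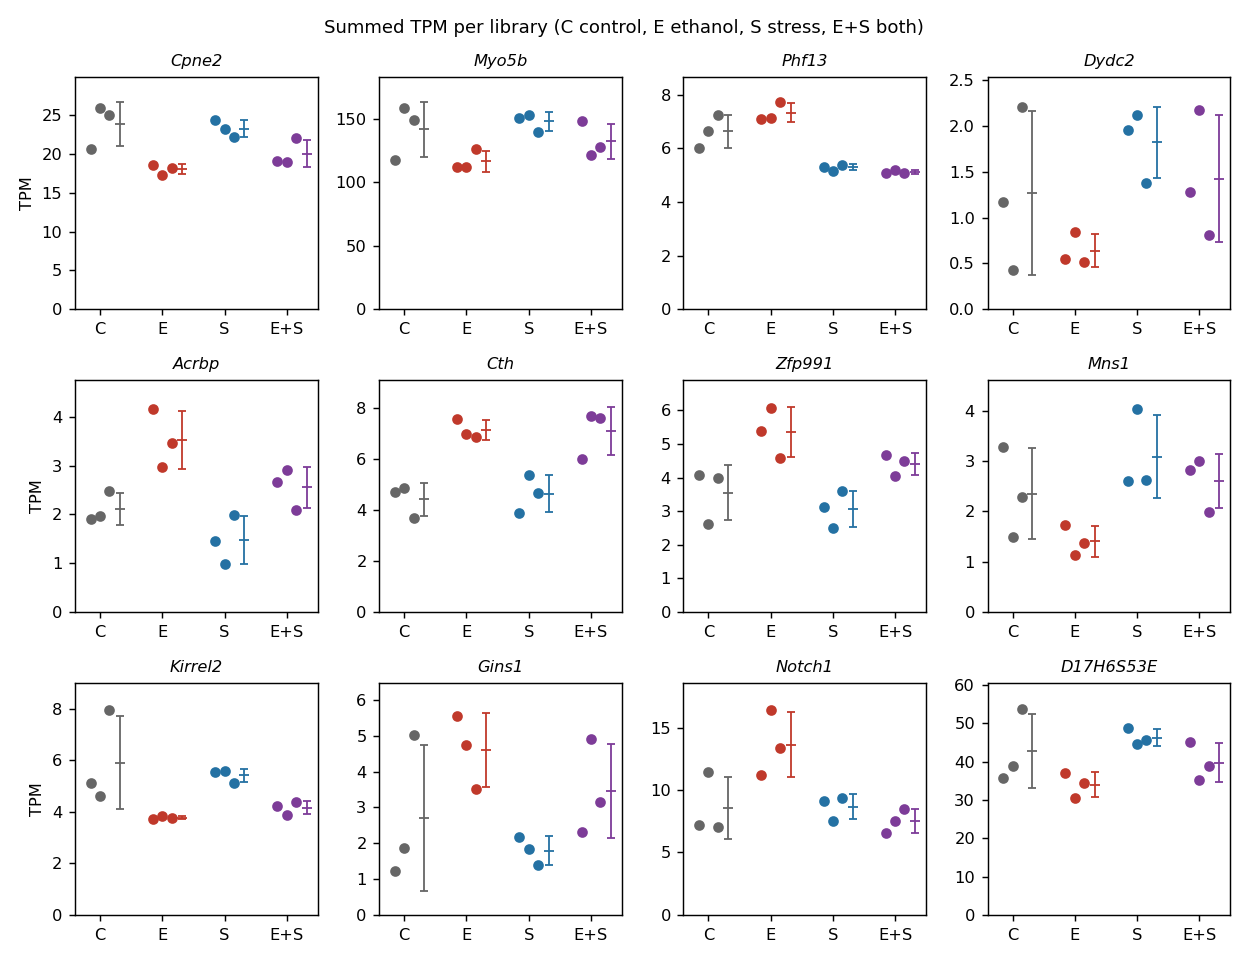
Each panel is a gene, with summed TPM on the vertical axis from 0 and 1 point per mouse for control (C), ethanol (E), stress (S) and ethanol + stress (E+S). Bars beside the points are the mean and SD of 3 mice. In each of the 12 panels the red ethanol points and blue stress points do not overlap, while the grey control points often span both, as for Dydc2 and Gins1.

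Gins1, a subunit of the replicative helicase complex, was at 5.56, 4.75 and 3.51 TPM in ethanol and 2.16, 1.85 and 1.38 TPM in stress (1.15, SE 0.23, limma unadjusted p = 0.00112). Its 339-base processed transcript carried this, at 3.35, 2.71 and 1.85 TPM against 0.360, 0 and 0.067 TPM. The coding transcript of Gins1 was at 1.02, 2.05 and 1.35 TPM in ethanol and 1.80, 1.45 and 1.32 TPM in stress, which overlap, with a difference of -0.06. Gins1 kept its call on all transcripts in each of the 6 fits without a library, from 1.01 to 1.31.

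Cdc7, the kinase that fires replication origins, gave 6.33, 6.27 and 8.14 TPM in ethanol and 4.51, 4.44 and 4.39 TPM in stress (0.57, SE 0.15, limma unadjusted p = 0.00543). A 647-base processed transcript of Cdc7 gave 0.563, 1.55 and 1.34 TPM in ethanol and was listed at 0 in stress. Its coding transcripts, 71.1% of the sum, gave 0.33 (unadjusted p = 0.191), with overlapping groups. Pold1, the catalytic subunit of DNA polymerase delta, and E2f2, a transcription factor of the cell cycle, were called in the same direction and are named after their values were seen. Pold1 differed by 0.62 on all transcripts and by -0.18 on coding ones, and a 532-base retained-intron transcript of it was at 1.68, 2.36 and 3.16 TPM in ethanol and listed at 0 in stress. Of 39 replication genes tested, a list drawn up after the values were seen, these 4 were the ones called and the median difference was 0.05. Because the list was built around them, the count is a description, beside 0.235% of all genes tested called higher, and nothing is read from it.

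Notch1, the cell-surface receptor that keeps neural progenitors undifferentiated, is named after its values were seen. It was at 11.2, 16.4 and 13.4 TPM in ethanol and 9.10, 7.50 and 9.39 TPM in stress (0.62, SE 0.17, limma unadjusted p = 0.00628). A 157-base processed transcript of Notch1, shorter than the mean fragment, was at 4.37, 9.71 and 4.13 TPM in ethanol mice and listed at 0 in stress mice. The coding mRNA of Notch1 was at 6.18, 5.60 and 5.71 TPM in ethanol and 5.18, 7.34 and 5.54 TPM in stress, a difference of -0.03.

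Dvl2, a Dishevelled protein of the Wnt pathway, was at 8.79, 9.80 and 7.93 TPM against 6.13, 5.71 and 5.99 TPM (0.53, SE 0.13, limma unadjusted p = 0.00396), with 0.06 on coding transcripts and 0.32 on recovered read pairs (unadjusted p = 0.0206). Snapc4, of the complex that transcribes small nuclear RNA genes, was at 17.2, 15.7 and 17.3 TPM against 8.76, 9.07 and 13.0 TPM (0.70, SE 0.16, limma unadjusted p = 0.00282) and its coding transcripts gave -0.25 (unadjusted p = 0.191). For both genes the coding values of the groups overlapped. Rrp1b, a nucleolar protein, was at 6.45, 6.69 and 7.56 TPM against 4.43, 4.77 and 4.08 TPM, with a difference of 0.59 on all transcripts and -0.41 on coding ones. Dhx35, an RNA helicase, gave 0.57 and 0.24 (13.7, 16.8 and 12.7 against 8.53, 9.40 and 10.6 TPM). Ttc7, which helps place a lipid kinase at the plasma membrane, gave 0.64 and -0.12 (7.31, 6.30 and 5.50 against 3.64, 4.48 and 3.61 TPM).

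Rgs11, a GTPase-activating protein for G-protein alpha subunits, and Tmc4, of a family of transmembrane channel-like proteins, held many retained-intron transcripts. Rgs11 was at 6.25, 6.93 and 5.54 TPM in ethanol and 2.77, 2.85 and 4.66 TPM in stress (0.81, SE 0.21, limma unadjusted p = 0.00568), and coding transcripts made up 11.9% of it. Tmc4 was at 3.08, 1.79 and 1.92 TPM against 0.705, 0.959 and 0.694 TPM (1.08, SE 0.27, limma unadjusted p = 0.00384), with a coding share of 48.6%. Their coding sums were under 1 TPM and were not tested, while recovered read pairs gave 0.60 for Rgs11 (unadjusted p = 0.0160) and 0.86 for Tmc4 (unadjusted p = 0.021), neither called. Rgs11 lies across the opposite strand of Arhgdig, Dvl2 of Acadvl, Rrp1b of Hsf2bp, Mns1 of Tex9 and Pold1 of Gm44833. On their own strand, Tmc4 overlaps Leng1 and Megf6 overlaps Gm13132. Whether strand was used in the quantification is not given in the sources used here.

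Zfp991, a zinc-finger protein gene, was at 5.40, 6.08 and 4.59 TPM in ethanol and 3.11, 2.51 and 3.60 TPM in stress (0.72, SE 0.18, limma unadjusted p = 0.00500). All its measured transcripts are coding, yet a 234-base one, at 1.62, 1.86 and 1.52 TPM in ethanol and listed at 0 in stress, separated the groups. Its 2813-base mRNA was at 3.78, 4.22 and 3.07 TPM against 3.11, 2.51 and 3.60 TPM, which overlap. Zinc-finger genes of this kind stand in families of near copies, so reads may be shared between them and the Zfp991 value is uncertain.

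Among genes lower in ethanol, Kirrel2, a cell adhesion protein of the nephrin family, had a sum of 3.71, 3.83 and 3.77 TPM in ethanol and 5.56, 5.58 and 5.11 TPM in stress (-0.47, SE 0.14, limma unadjusted p = 0.00943). On coding transcripts, 93.8% of the sum, Kirrel2 was called too and its groups stayed apart (-0.54, unadjusted p = 0.00373). A 575-base coding transcript of Kirrel2 was listed at 0 in ethanol and gave 3.04, 1.57 and 2.55 TPM in stress. The 3352-base mRNA ran the other way for 2 of the 3 stress mice, at 3.41, 3.39 and 3.47 TPM in ethanol and 2.37, 3.86 and 2.28 TPM in stress, and recovered read pairs gave 0.21 (unadjusted p = 0.217). The direction for Kirrel2 therefore depended on the measure.

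D17H6S53E was at 36.9, 30.5 and 34.5 TPM in ethanol and 48.7, 44.5 and 45.5 TPM in stress (-0.44, SE 0.11, limma unadjusted p = 0.00334). A 346-base retained-intron transcript held 68.5% of it, at 23.6, 19.3 and 18.4 TPM against 34.8, 30.8 and 32.6 TPM, whereas the mRNA was at 13.3, 11.1 and 16 TPM against 13.9, 13.7 and 12.9 TPM. The D17H6S53E call was thus a call on that one transcript. Megf6, a protein of EGF-like repeats, was at 1.97, 1.35 and 2.15 TPM against 3.87, 3.56 and 4.05 TPM (-0.91, SE 0.20, limma unadjusted p = 0.00212) and kept its call in each of the 6 fits without a library, although its coding sum was under 1 TPM with overlapping groups, and its recovered read pairs gave -0.49 (unadjusted p = 0.0755, not called). Arhgap36 was at 1.03, 0.959 and 1.33 TPM against 2.27, 2.29 and 2.04 TPM (-0.75, SE 0.21, limma unadjusted p = 0.00829), and its recovered read pairs gave -0.05.

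Mns1 and Mapk15 both act in cilia, which on the ependyma are beating hairs. Mns1, which builds the cilium axoneme, was at 1.74, 1.13 and 1.36 TPM in ethanol and 2.61, 4.04 and 2.62 TPM in stress (-0.90, SE 0.24, limma unadjusted p = 0.00628), and its recovered read pairs gave -0.44 (unadjusted p = 0.0611, not called). Mapk15, an atypical MAP kinase of cilium formation, was at 0.508, 0.887 and 0.432 TPM against 1.58, 2.86 and 1.52 TPM (-1.15, SE 0.31, limma unadjusted p = 0.00649). A 419-base processed transcript held 54.2% of its sum, and recovered read pairs gave 0.02. Mapk15 reached the 1 TPM minimum only through the stress group, whose mean was 1.99 TPM. The control, ethanol and ethanol + stress means were 0.895, 0.609 and 1.08 TPM. In a list of 23 tested motile cilium genes, drawn up after the values were seen, 3 were called (Mns1, Dydc2 and Mapk15), 21 had a negative difference and the median was -0.32. The list was built around the called genes, so nothing is read from that count beside the 0.0899% of all genes called lower. Foxj1, the master regulator of motile cilia, did not pass (8.49, 7.62 and 5.07 TPM in ethanol, 10.0, 10.8 and 6.23 TPM in stress), and Cfap157, of the same list, differed by 1.17 the other way.

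The amount of choroid plexus RNA varied widely among the same mice. The choroid plexus secretes cerebrospinal fluid from an epithelium beside the hippocampus, and a dissection can carry varying amounts of it. The summed TPM of its 13 markers was 4222.5, 226.5 and 170 in ethanol mice 1 to 3 and 2332, 6314 and 2027 in stress mice, so ethanol mice 2 and 3 were low and ethanol mouse 1 was not. Control mice were at 1685, 880 and 2379, and ethanol + stress mice at 2892, 8024 and 374. The part of choroid plexus RNA in the values of Mns1, Dydc2 and Mapk15 was not tested.

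None of the 13 choroid plexus markers was called, 12 had a negative difference, and the median was -1.46 beside 0.01 for all genes. Ttr, the thyroid hormone carrier transthyretin, was at 3424, 70.7 and 30.0 TPM in ethanol mice and 1786, 5100 and 1600 TPM in stress mice (-3.65, SE 1.56). Folr1, a folate receptor, was at 46.4, 2.80 and 0.579 TPM against 21.7, 62.7 and 18.9 TPM (-2.45, SE 1.23), and Enpp2, the phospholipase autotaxin, differed by -1.33 (SE 0.67). The groups overlap for all 3 because of ethanol mouse 1. Without that mouse each passed the call threshold, with differences of -5.71 for Ttr, -3.99 for Folr1 and -2.13 for Enpp2 (limma unadjusted p = 2.23e-05, 0.000397 and 0.0012). In bulk tissue, fewer cells of a type and less RNA per cell cannot be told apart.

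Of the 11 called pseudogenes, 7 matched a coding transcript, 6 of them at 98% identity or more, and their transcripts were 195 to 381 bases long. Reads can be told from those of the matching mRNA only where they cover a difference, so the values of these pseudogenes are uncertain. The mean fragment was 196 to 208 bases, close to the length of the shortest of these transcripts.

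Gm14269, at chr2:170463514-170463819 (GRCm38), was listed at 0 in ethanol and gave 3.02, 5.86 and 4.61 TPM in stress. Control mice were at 1.06, 2.41 and 0 TPM and ethanol + stress mice at 4.12, 3.92 and 1.14 TPM. Its limma unadjusted p was 4.74e-06 and its adjusted p 0.0686.

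Tma7-ps, at chr1:171711088-171711282 (GRCm38), is a copy of the translation machinery gene Tma7. The stretch that holds their 2 differences is shown, with the differences in capitals, because reads can be assigned to the copy only where they cover one (GENCODE vM21, transcript sense, bases 98 to 166 of the copy and 343 to 411 of the parent).
Tma7-ps: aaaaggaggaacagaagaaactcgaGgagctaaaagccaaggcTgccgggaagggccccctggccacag
Tma7: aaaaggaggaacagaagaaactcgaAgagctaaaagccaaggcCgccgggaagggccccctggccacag
Tma7-ps was at 0, 0 and 2.55 TPM in ethanol and 5.09, 3.11 and 7.04 TPM in stress, whereas Tma7 was at 289, 375 and 237 TPM against 331, 253 and 277 TPM (0.05, SE 0.18).

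The other called pseudogenes went in both directions. Gm10182, a copy identical to Hmgn2 over its 273 bases and matched equally well by Gm10282, was at 0, 4.77 and 4.92 TPM in ethanol. It was at 32.7, 32.9 and 39.8 TPM in stress, with control mice at 27.0, 36 and 28.8 TPM. Pdcd5-ps, identical to Pdcd5 over 381 bases, was listed at 0 in ethanol and gave 1.31, 22.1 and 6.22 TPM in stress. Gm26712 lies within Pyurf on the same strand, and its coding match is Pyurf itself rather than a gene elsewhere. It was at 6.56, 15.7 and 8.08 TPM in ethanol and 1.35, 0 and 0 TPM in stress, and Gm45647 at 4.44, 7.46 and 10.0 TPM against 1.29, 0 and 0 TPM. Gm49070 was at 2.18, 3.73 and 2.03 TPM in ethanol and listed at 0 in stress. None of the coding genes that the 7 matched was called.

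For called genes the control mice mostly fell between the exposures. The control mean lay between the ethanol and stress means for 40 of the 47 (85.1%, against 35.4% of all genes tested). It was nearer to the stress mean for 34 (72.3%, against 60.3%). The ethanol + stress mean lay between for 38 of the 47 (80.9%, against 27.9%) and was nearer to ethanol for 24 (51.1%, against 59.5% of all genes tested). Since the 47 were chosen for a wide gap between ethanol and stress, a mean between them is favoured, and no test was made of these counts.

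None of the members of the 33 gene lists (those not built from the values) was called, and at the 0.325% of all genes tested that were called, lists of this size would mostly hold none. Corticosteroid receptors and the CRH system had 6 of 7 members negative and a median of -0.14. Nr3c1, the glucocorticoid receptor, was at 48.3, 45.2 and 51.1 TPM in ethanol and 52.3, 51.9 and 55.2 TPM in stress, which do not overlap, yet its difference of -0.14 had an interval of -0.36 to 0.08. Nr3c2, the mineralocorticoid receptor, differed by -0.15 with an interval of -0.42 to 0.12. Glucocorticoid-induced genes were even, with 8 positive and 8 negative of 16 and a median of 0.01, and Tsc22d3, which encodes the glucocorticoid-induced leucine zipper, was at 75.2, 110 and 69.3 TPM against 85.4, 82.5 and 72.9 TPM.

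**Figure D4:**
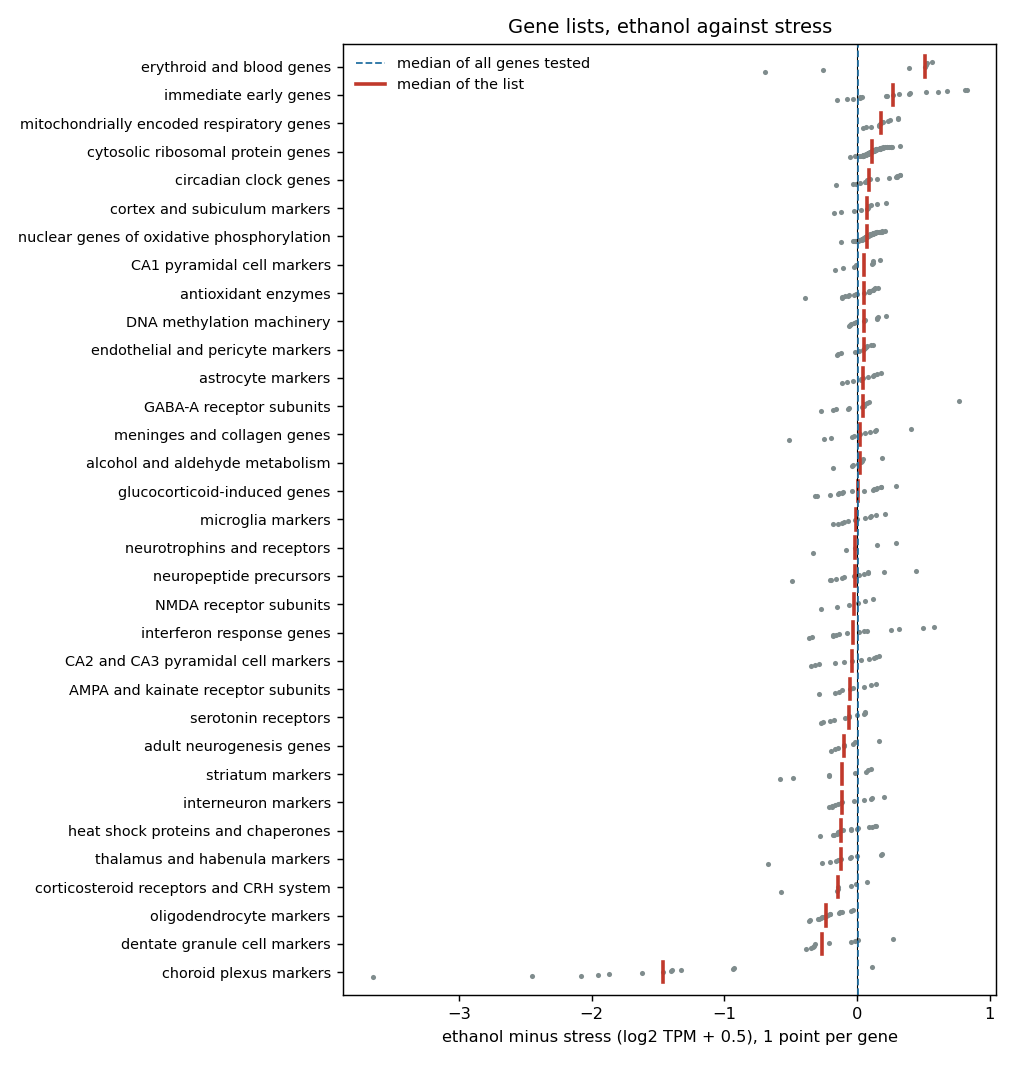
Each row is a gene list, each grey point a member's ethanol minus stress difference in log2(TPM + 0.5), the red bar the list's median and the dashed line the median of all genes tested. Choroid plexus markers stand far to the left with a median of -1.46, erythroid genes lie at 0.52, and most lists sit close to 0.

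Immediate early genes, which neurons switch on within minutes of activity, had 14 of 17 members positive and a median of 0.27. Arc, which regulates glutamate receptor removal, was at 70.3, 109 and 119 TPM in ethanol and 91.5, 45.4 and 52.6 TPM in stress (0.68, SE 0.29, limma unadjusted p = 0.0474). Nr4a1, a nuclear receptor induced by activity, was at 17.9, 27.9 and 36.2 TPM against 23.7, 10.2 and 13.1 TPM (0.81, SE 0.34, limma unadjusted p = 0.0449). Ethanol mouse 1 and stress mouse 1 overlapped the other group for both. Without stress mouse 1, Arc passed the call threshold at 0.98 (limma unadjusted p = 0.00475). Junb differed by 0.40 (SE 0.28) and Homer1 by 0.04 (SE 0.09).

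Circadian clock genes summed to 587, 596 and 594 TPM in ethanol mice and 529, 526 and 543 TPM in stress mice, without overlap on the deposited scale. With every library scaled to a common total the sums were 587, 510 and 670 in ethanol and 519, 576 and 558 in stress, which overlap. On the deposited scale, control mice were at 537, 533 and 579 and ethanol + stress mice at 567, 545 and 578. Of 16 members 13 had a positive difference, with a median of 0.09. Bhlhe40, a repressor of the clock, was at 54.9, 47.9 and 55.0 TPM against 42.3, 44.8 and 40.5 TPM (0.30, SE 0.10, limma unadjusted p = 0.0182). Tef and Dbp, transcription factors of the clock output, differed by 0.15 (SE 0.09) and 0.30 (SE 0.19). The time of day of tissue collection is not given in the sources used here.

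Transmitter systems sat near the median of all genes. NMDA receptor subunits had a median of -0.02 over 6 genes, AMPA and kainate subunits -0.05 over 9, GABA-A subunits 0.05 over 12 and serotonin receptors -0.06 over 11. Gabra2, the alpha 2 subunit of the GABA-A receptor, was at 48.1, 46.6 and 81.2 TPM in ethanol and 23.4, 29.8 and 52.0 TPM in stress (0.77, SE 0.32, limma unadjusted p = 0.0429), and is named after its values were seen. Bdnf, the neurotrophin of synaptic plasticity, was at 15.9, 14.2 and 20.4 TPM against 23.7, 21.7 and 18.1 TPM, with a difference of -0.33 and an interval of -0.71 to 0.05. Neuropeptide precursors had a median of -0.02, with Cck at -0.02 (SE 0.13) and Sst at 0.05 (SE 0.12).

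Of 10 dentate granule cell markers 8 were negative, with a median of -0.26. C1ql2, a synaptic organiser of mossy fibres, was at 32.4, 42.2 and 46.3 TPM in ethanol and 49.3, 52.4 and 51.1 TPM in stress (-0.35, SE 0.14, limma unadjusted p = 0.038). Prox1, the granule cell identity factor, was at 13.0, 12.7 and 14.4 TPM against 15.3, 20.9 and 14.7 TPM (-0.32, SE 0.15) and is named, like Nr4a1, after its values were seen. Both were below the stress range in all ethanol mice. So were 3 of the 10 markers in all, beside 2.53% of all genes tested. The differences of the 10 ran from -0.39 to 0.28. Calb1 differed by -0.01 (SE 0.09) and Stxbp6 by -0.21 (SE 0.18), both with overlapping groups. CA1 markers had a median of 0.06, CA2 and CA3 markers -0.03, interneuron markers -0.12 and adult neurogenesis genes -0.10.

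Of 8 alcohol and aldehyde metabolism genes tested, 5 were positive, with a median of 0.02. Aldh2, the mitochondrial enzyme that clears acetaldehyde, was at 107, 114 and 94.9 TPM in ethanol and 99.9, 111 and 97.4 TPM in stress. Aldh1a1, a cytosolic aldehyde dehydrogenase, was at 125, 193 and 95 TPM against 130, 116 and 102 TPM. Antioxidant enzymes had a median of 0.06 over 19 genes, heat shock proteins -0.12 over 18, the DNA methylation machinery 0.06 over 11 and interferon response genes -0.03 over 14.

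All 17 oligodendrocyte markers had a negative difference, with a median of -0.23 and no call. Their sum was 5520, 6021 and 3290 TPM in ethanol mice and 6552, 5483 and 4313 TPM in stress mice, so ethanol mouse 3 was the lowest, and Mbp, a myelin protein, stood there at 1304 TPM against 2442 and 2806 TPM in the other two. Erythroid genes had 5 of 7 members positive and a median of 0.52, with a sum of 3475, 6820 and 3149 TPM in ethanol against 3401, 2602 and 2815 TPM in stress and 1603 to 2029 TPM in control mice. These erythroid sums overlap on the deposited scale, and with a common total they were 3470, 5833 and 3555 in ethanol and 3334, 2848 and 2892 in stress, which do not. Hba-a2, a haemoglobin alpha chain with a near-identical copy in Hba-a1, was at 948, 1751 and 897 TPM against 879, 703 and 747 TPM (0.56, SE 0.26). Astrocyte, microglia, endothelial and meningeal markers had medians of 0.05, -0.01, 0.05 and 0.02. Markers of neighbouring regions, which a dissection could include, had medians of -0.12 for thalamus and habenula, -0.11 for striatum and 0.08 for cortex and subiculum.

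Small and abundant transcripts varied between libraries. Ribosomal protein genes had 80 of 82 members positive (median 0.11), nuclear oxidative phosphorylation genes 70 of 76 (median 0.08) and mitochondrially encoded respiratory genes 13 of 13 (median 0.18), none of them called. The ribosomal sum was 66453, 97702 and 53210 TPM in ethanol and 74949, 53673 and 66913 TPM in stress, so ethanol mouse 2 was highest of the 6 and ethanol mouse 3 lowest. With a common total ethanol mouse 2 was still highest (83564), and stress mouse 2 (58744) lay below ethanol mouse 3 (60068). Ethanol mice 2 and 3 had the steepest trends of level over the length of the main transcript, with slopes of -0.09 and 0.07 log2 units per doubling of length, against -0.02 to 0.06 in the other 4.

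**Figure D5:**
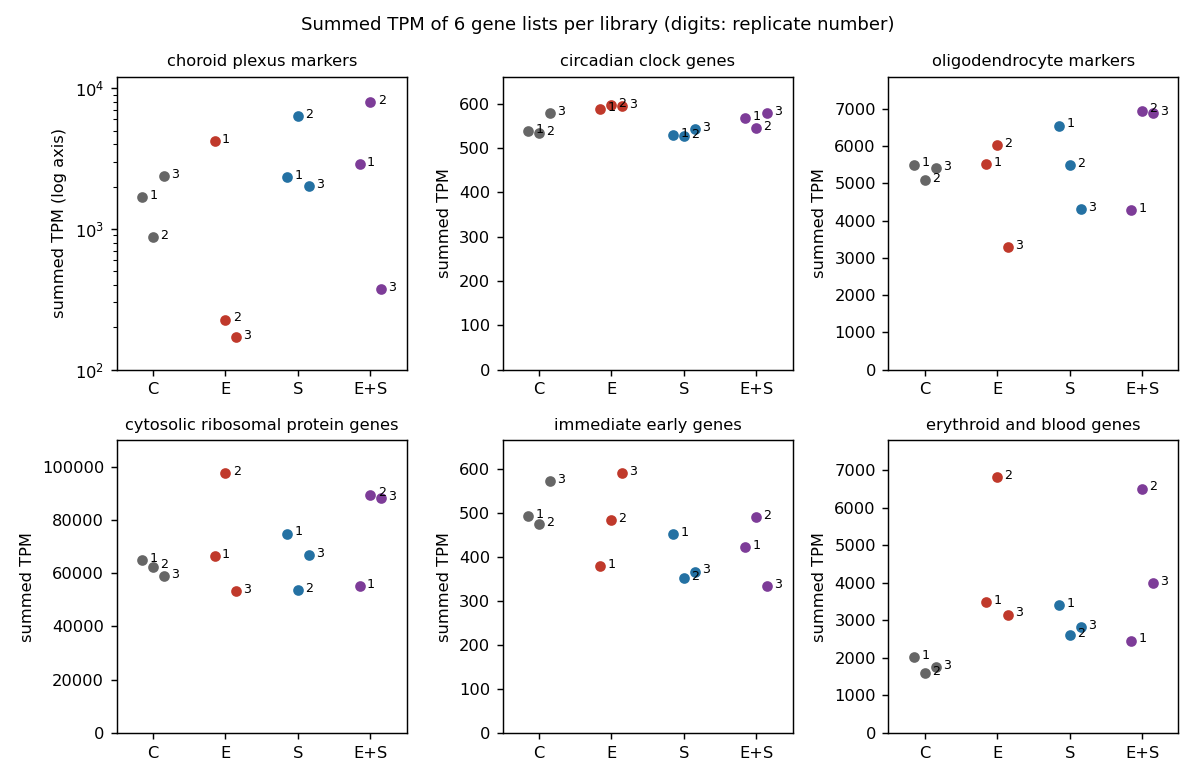
Each panel is a gene list and each point the summed TPM of 1 mouse, with its replicate number, for control (C), ethanol (E), stress (S) and ethanol + stress (E+S). The choroid plexus panel has a log axis and shows ethanol mice 2 and 3 far below the other ethanol mouse, while in the circadian panel the 3 ethanol points lie just above the stress points on the deposited scale plotted, where a common total gives overlap.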

How the data were processed

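RNA from the hippocampus of 12 male mice was sequenced as ribosome-depleted, stranded, paired-end total RNA, 1 library a mouse. The authors quantified it with kallisto against Ensembl transcripts of mouse (GRCm38/mm10) and deposited TPM per transcript, a signal scaled between libraries, with sums from 889222 to 1173650 a library. The submitters' processing notes also name sleuth and CASAVA, and versions are not given in the sources used here.

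Transcripts were matched by identifier to GENCODE vM21 (113580 of 115270) and summed per gene. Genes with a mean of 1 TPM or more were tested, ethanol minus stress, with limma 3.58.1 (R 4.3.3) and eBayes(trend=TRUE) on log2(TPM + 0.5), two-sided, in the 3 ethanol and 3 stress libraries. A call is an unadjusted p under 0.01, and adjusted p-values are Benjamini-Hochberg over all genes tested. P-values set the difference between groups against the spread between individual mice, with the variance of each gene moderated over all genes. Low values of transcripts of 500 bases or more fell on whole read pairs within 0.1 for 79.6% to 82.5%, which gave the depths. Depth sets the precision of low genes, and intervals cover the spread between mice. Pseudogenes were aligned to coding transcripts with BLAST 2.17.0. Some items are not reported here. The fit was tested on simulated data.

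Members and gene lists were chosen with earlier results of these data known, and the replication, motile cilium and Notch lists after seeing these values. Named genes are the 12 called genes per direction with the smallest p, non-overlapping groups and a symbol not starting with Gm or ending in Rik, called list members, the 3 most abundant members of each list, and the 3 largest changes per direction. Phf13, Notch1, Pold1, E2f2, Ighm, Nr4a1, Bhlhe40, Gabra2, Foxj1, Cfap157, Prox1 and Neurod6, and Tma7-ps for its sequence, were named after their values were seen or as tissue markers.

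Alternatives were another pseudocount, filter, scaling, variance model, all 12 libraries, a replicate block, a length trend, transcripts in place of genes, leaving out each library, recovered read pairs, protein-coding genes only, coding transcripts only, the lower filters without genes at 0 in all 6 libraries, and list sums on a common total, the last 5 added after seeing the data.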

Additional observations from a re-analysis of the deposited data

How the results depend on the processing

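The 47 calls became 135 with a minimum mean of 0.1 TPM, 19 with 5 TPM, 230 with no filter (107 and 145 without genes at 0 in all 6 libraries, added after seeing the data) and 31 with a common total, which moved the median of all genes from 0.01 to -0.05. They became 280 of 35350 tested with transcripts in place of genes (lowest limma adjusted p 0.174), 21 with recovered read pairs and 22 with coding transcripts only. Leaving out 1 mouse gave 41 to 92 calls. Genes at an adjusted p under 0.05 by limma, none in the main analysis, numbered 7 with the 0.1 TPM minimum and 20 with no filter (6 and 7 without those genes at 0), 3 without the trend, 1 with all 12 libraries and 0 to 2 without 1 mouse, and stayed at 0 under the other alternatives. Among genes tested on coding transcripts the difference changed sign for Gins1 (-0.064), Snapc4 (-0.25), Rrp1b (-0.41) and Ttc7 (-0.12), and for Notch1 (-0.03), Pold1 (-0.18) and 4931406P16Rik (-0.08), which the naming rule left out. Among those under 1 TPM there, it had the opposite sign, untested, for Mapk15 (0.20), Arhgap36 (0.00089) and 1 further called gene. On recovered read pairs it changed sign for Mapk15 (0.016) and Kirrel2 (0.21) and, outside the rule, for Pold1 (-0.06), 4931406P16Rik (-0.03) and 1 further called gene. The causes of these changes were not tested. Of 2642 recomputed values of the genes named by the rule, 2483 kept their side of the call threshold. A call was lost in 149 and gained in 4, and in 6 values of called genes the sign changed. For genes not called, a change of sign that stayed short of the threshold was not counted.

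With a common total the list medians changed sign for glucocorticoid-induced genes (-0.06), alcohol and aldehyde metabolism (-0.04), GABA-A subunits (-0.02), DNA methylation (-0.01), astrocyte (-0.02), endothelial (-0.01), meningeal (-0.02) and CA1 markers (-0.01). Ethanol and stress mice with the same number shared only a number, since the correlations of their deviations were -0.05, -0.21 and 0.07. With the replicate block 38 genes were called, 20 of them among the 47, and 0 passed an adjusted p of 0.05.

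With 3 mice a group, the median 95% interval reached 0.36 log2 units either side, and for a typical gene a difference under 0.53 did not reach the call threshold.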

Other observations

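Some single transcripts separated the groups fully, and those given here were chosen after their values were seen. A 185-base retained-intron transcript of Psme2, a proteasome activator subunit, was at 3.74, 4.86 and 4.70 TPM in ethanol and listed at 0 in stress and control mice. In ethanol + stress mice it was at 3.06, 0 and 0 TPM. A 333-base processed transcript of Atxn1, a gene of spinocerebellar ataxia, was listed at 0 in ethanol and gave 5.33, 10.2 and 9.04 TPM in stress. Control mice were at 16.4, 0 and 0 TPM and ethanol + stress mice at 9.11, 0 and 4.44 TPM. Mpv17, a mitochondrial inner membrane protein, had a 903-base coding transcript at 0.059 TPM in ethanol mouse 1 and rounding to 0 in the other two. That transcript was at 4.39, 4.26 and 6.42 TPM in stress and 4.65, 8.17 and 3.36 TPM in control mice. Ethanol + stress mice were at 9.82e-05, 4.20 and 0 TPM. As gene sums, Psme2, Atxn1 and Mpv17 are not among the 47 called. No transcript passed an adjusted p of 0.05, with 1403 at an unadjusted limma p under 0.05.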
